A study of Mus musculus with 14 samples.

Results

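The stem cell transcription factor heptad consists of Gata2, Tal1, Lyl1, Lmo2, Runx1, Erg and Fli1. These 7 genes were taken by name from the 52550 genes of the count table and followed in every library of the series. In blood stem and progenitor cells the proteins of the heptad bind many of the same enhancers and are known to regulate each other's genes. GATA2 binds GATA sites, TAL1 and LYL1 are basic helix-loop-helix factors that bind E-boxes with E-protein partners, and LMO2 bridges them to GATA factors without binding DNA itself. RUNX1 is a Runt domain factor, and ERG and FLI1 are closely related ETS factors. Several of these genes are required for the emergence or maintenance of blood stem cells, and some are rearranged or mutated in leukemia.

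Total RNA from 14 samples was sequenced after ribosomal RNA depletion. The WT HSPC group (n = 4) and the Mir139KO HSPC group (n = 4) were hematopoietic stem and progenitor cell (HSPC) enriched bone marrow from the femurs and tibiae of C57BL/6 mice aged 8 to 20 weeks, lysed directly after enrichment. The Mir139KO mice lacked the microRNA gene Mir139, deleted with a Cas9 nickase. The MLL-AF9 group (n = 6) was made from WT HSPCs that were kept overnight in interleukins, GM-CSF and stem cell factor and transduced with a retrovirus carrying the leukemia fusion gene MLL-AF9, with a neomycin resistance vector (neo, replicates 1 to 3) or a puromycin resistance vector (puro, replicates 4 to 6). These cells were drug-selected and replated repeatedly in semi-solid medium before lysis. No cultured or empty-vector HSPCs are among these samples, so that the fusion gene cannot be told apart from transduction, selection and culture. HSPC enrichment removes mature lineages without purifying a single cell type, and in bulk samples fewer cells of a type and less RNA per cell cannot be told apart. The labels do not say whether the libraries of a group came from separate mice or cultures, so p-values measure only the spread between these samples.

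The libraries held 35016668 to 45877994 counts, and 3 counts, taken as the detection floor, corresponded to 0.0654 to 0.0857 counts-per-million (CPM). A single gene, Gm26917, took 17 to 35.4% of the counts in HSPC libraries and 7.55 to 10.4% in MLL-AF9 libraries. The HSPC libraries fell below 25% (WT replicates 1 and 2, Mir139KO replicates 2 and 3) or above it (WT replicates 3 and 4, Mir139KO replicates 1 and 4). These 2 kinds of library did not overlap for 65.0% of all genes tested, so values are given within each kind where they matter. Mir139 itself was listed at 0 in all 14 libraries, which leaves the knockout unchecked by these counts. The puro libraries 4 and 6 were more alike (Pearson's r across genes 0.9946) than any other pair within a group, although they differed by more than sampling noise. All 8 stem and progenitor markers examined had at least 10 counts in every HSPC library, but megakaryocyte, erythroid, mast cell and basophil, myeloid and lymphoid markers were there too.

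The heptad genes lie on 6 mouse chromosomes (GRCm38, GENCODE M21). Gata2 spans chr6:88193891-88207032, Tal1 chr4:115056426-115071755, Lyl1 chr8:84701457-84704715 and Lmo2 chr2:103957986-103981878, all on the plus strand. Runx1 (chr16:92601466-92826149), Erg (chr16:95359169-95586593) and Fli1 (chr9:32422204-32542861) are on the minus strand. Counts were made over exons, whose union is 1.8 kb for Lyl1, 2.17 kb for Lmo2, 3.47 kb for Erg, 3.49 kb for Fli1, 4.38 kb for Tal1, 5.4 kb for Gata2 and 12.02 kb for Runx1.

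RefSeq promoter sequences (GRCm38.p6, 250 bases before to 50 after a start site) were at hand for 10 start sites of 5 members, and none for Lmo2 and Fli1. They were searched on both strands for the letters that the heptad's own proteins recognise. These were GATAA for GATA factors, CAGCTG or its variant CAGATG for E-box binding proteins, GGAAG for ETS factors and TGTGGT for Runt domain factors, with no further bases required. Of the 10 promoters, 2 held the GATA letters, 2 an E-box, 5 the ETS letters and 1 the RUNX letters. Among all 32851 promoters of this length the shares were 25.4%, 30.6%, 71.4% and 16.8%. The 3 promoters below belong to the members with the strongest decreases and the strongest increase in MLL-AF9 cells. For each member a start site was picked whose promoter holds letters of another or the same member's family. The other Gata2 promoter and the other Runx1 promoter held none of the letters searched. The other Tal1 promoter held only ETS letters (2 matches). Capitals mark the matches, none of which overlap, and the gene-level counts do not tell which start site was used. The Gata2 promoter (chr6:88198414-88198713, plus strand) has 1 E-box, the Tal1 promoter (chr4:115056176-115056475, plus strand) 1 GATA match and 1 E-box, both in reverse orientation, and the Runx1 promoter (chr16:92826025-92826324, minus strand) 1 ETS match and 2 RUNX matches, the latter in reverse orientation.
Gata2 promoter: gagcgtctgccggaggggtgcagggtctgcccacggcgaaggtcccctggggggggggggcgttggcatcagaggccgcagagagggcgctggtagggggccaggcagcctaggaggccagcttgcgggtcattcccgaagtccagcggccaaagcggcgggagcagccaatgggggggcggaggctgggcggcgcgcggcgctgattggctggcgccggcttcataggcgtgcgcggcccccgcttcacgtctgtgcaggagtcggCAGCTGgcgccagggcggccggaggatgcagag
Tal1 promoter: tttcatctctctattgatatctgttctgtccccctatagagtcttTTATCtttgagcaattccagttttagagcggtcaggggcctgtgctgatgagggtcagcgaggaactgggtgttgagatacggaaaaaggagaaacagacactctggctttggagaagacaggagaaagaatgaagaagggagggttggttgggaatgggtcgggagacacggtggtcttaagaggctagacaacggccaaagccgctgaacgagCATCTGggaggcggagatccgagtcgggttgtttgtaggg
Runx1 promoter: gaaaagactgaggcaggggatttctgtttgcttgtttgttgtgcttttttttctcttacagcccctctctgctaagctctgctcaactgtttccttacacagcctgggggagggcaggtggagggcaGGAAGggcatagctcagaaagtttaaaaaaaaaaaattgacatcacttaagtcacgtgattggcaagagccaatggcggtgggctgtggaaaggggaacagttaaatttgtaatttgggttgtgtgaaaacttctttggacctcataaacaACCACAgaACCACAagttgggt

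In MLL-AF9 cells the heptad split. Gata2, Tal1 and Lmo2 were lower than in WT HSPCs, Runx1 and Fli1 were higher, Erg differed between cultures, and Lyl1 was listed at 0 throughout. Of the 6 members tested, 2 passed as higher and 3 as lower at an adjusted p under 0.05 (edgeR quasi-likelihood test, Benjamini-Hochberg adjustment over all genes tested). These 2 groups differed widely, and 32.8% of all 17077 genes tested passed as higher and 29.4% as lower, so the members' share was not far from that of other genes. The groups did not overlap for 5 of the 6 members and for 50.5% of all genes. The median log2 fold change of the 6 members was -0.16, against 0.14 for all genes tested. Scaling to total counts alone moved the latter to 0.69 and gave 6747 higher and 3128 lower genes instead of 5603 and 5027, and the members' directions stayed as given here.

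**Figure D1:**
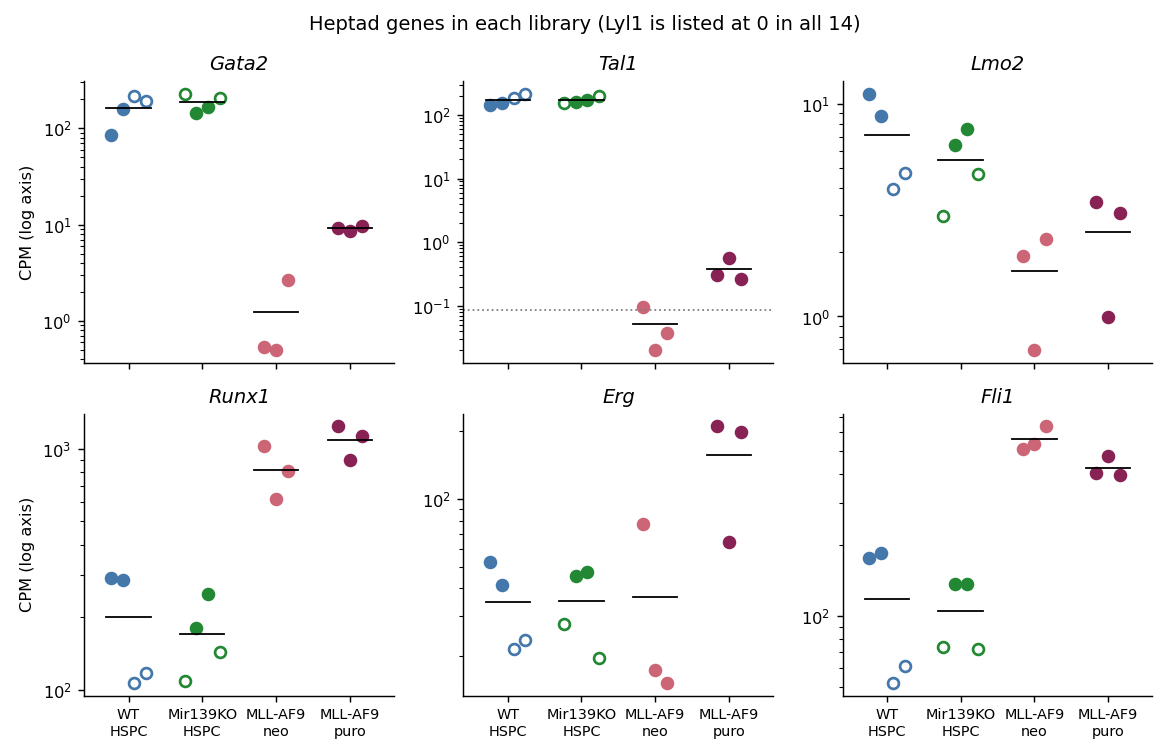
CPM (log axis) of 6 heptad genes in each of the 14 libraries, in WT HSPCs, Mir139KO HSPCs and MLL-AF9 cells with the neo or puro vector. Each point is 1 library, bars are group means, open points are HSPC libraries with over 25% of counts from Gm26917, and the dotted line in the Tal1 panel is the highest 3-count floor (0.0857 CPM). Gata2 and Tal1 drop from HSPCs to MLL-AF9 cells, Runx1 and Fli1 lie higher there, and Erg ranges from 15.2 to 210 CPM among MLL-AF9 cultures.

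Gata2, a zinc finger factor needed for stem cell survival and for mast cell development, was at 85.1, 158, 216 and 194 CPM in WT HSPC replicates 1 to 4. In the neo cultures it was at 0.543, 0.495 and 2.64 CPM, and in the puro cultures at 9.19, 8.52 and 9.8 CPM. Every MLL-AF9 library thus lay below every HSPC library, and every neo culture below every puro culture. Gata2 fell 32.0-fold in MLL-AF9 cells (log2 fold change -5.00, SE 0.80, adjusted p = 0.000287). With the neo cultures alone the log2 fold change was -7.05 (adjusted p = 8.93e-05), and with the puro cultures alone -4.15 (adjusted p = 0.000195).

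Tal1, the helix-loop-helix factor that drives stem cell, erythroid and megakaryocyte programs, varied little among the HSPC libraries. WT replicates 1 to 4 had 145, 152, 187 and 215 CPM. MLL-AF9 cells had almost no Tal1 reads: 5, 1 and 2 counts in the neo cultures and 15, 28 and 14 counts in the puro cultures, in libraries where WT HSPCs had 5654 to 6928 counts. That corresponded to 0.0969, 0.0198 and 0.0366 CPM with neo, of which the lower values are under the floor, and to 0.3, 0.56 and 0.266 CPM with puro. No library came near the other group, and the log2 fold change, -9.70 (SE 0.72, adjusted p = 1.84e-06), was the largest decrease of the heptad. Since it rests on a total of 65 reads in 6 libraries, its size is less certain than its direction.

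Markers of cell types that use Gata2 and Tal1 fell in the same comparison. The 7 erythroid markers tested, among them the globin gene Hba-a1 and the carbonic anhydrase gene Car1, all passed as lower, and their summed level was 1020 to 1350 CPM in WT HSPCs and 0.999 to 2.81 CPM in MLL-AF9 cells. Car1 was at 0 in all MLL-AF9 libraries. Alas2 was listed at 0 in every library, HSPCs included, and, as for Lyl1 below, such a zero says nothing about its expression. The 7 megakaryocyte markers also all passed as lower, with sums of 148 to 666 CPM in WT HSPCs and 10.7 to 41.6 CPM in MLL-AF9 cells. So did the 6 mast cell and basophil markers tested, whose sums were 674 to 1700 CPM and 10.9 to 57 CPM. The part of these cells in the Gata2 and Tal1 differences was not tested. Of the other marker lists, 6 of 8 stem and progenitor, 6 of 6 B cell and 5 of 5 T and NK cell markers passed as lower, with 4 of 5 monocyte and macrophage markers lower and 1 higher and 1 of 5 neutrophil markers lower.

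Lyl1, the closest relative of Tal1, was listed at 0 in all 14 libraries, and no value can be given for it. The same table lists 3922 of 21819 protein-coding genes (18%) at 0 in every library, and these include 3 of 76 cytosolic ribosomal protein genes (Rpl13, Rpl35a and Rpl35) and Hif1a, which every cell uses. The zero therefore says nothing about Lyl1 expression. Its neighbours Nfix and Trmt1 had 54419 and 35726 counts over all libraries. In the GENCODE M21 annotation 4 bases of Lyl1 exon (0.22%) are shared with Nfix on the other strand.

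Lmo2, the bridging protein of the TAL1 and GATA complex, had the lowest level per kb of exon of the detected members in HSPCs. It was at 11.1, 8.75, 3.96 and 4.7 CPM in WT replicates 1 to 4, at 1.92, 0.693 and 2.31 CPM in neo cultures and at 3.46, 0.999 and 3.06 CPM in puro cultures. The highest MLL-AF9 library was just under the lowest WT library. The log2 fold change was -1.79 (SE 0.49, adjusted p = 0.00701). It was -2.30 (adjusted p = 0.012) against the WT libraries below 25% Gm26917 and did not pass against those above it (-1.17, adjusted p = 0.114), with scaling to total counts (-1.30, adjusted p = 0.0777) or with puro cultures alone (-1.49, adjusted p = 0.0513).

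Runx1, the Runt domain factor that is required for blood stem cells to arise, was higher in every MLL-AF9 library than in any HSPC library. WT replicates 1 to 4 had 291, 287, 107 and 118 CPM. Neo cultures had 1030, 620 and 812 CPM and puro cultures 1240, 903 and 1130 CPM. Runx1 rose 4.72-fold (log2 fold change 2.24, SE 0.38, adjusted p = 0.000415). The log2 fold change was 1.68 against the WT libraries below 25% Gm26917 (adjusted p = 0.00365) and 2.96 against those above it (adjusted p = 0.000122). Of the Runx1 exon bases, 106 (0.88%) overlap the antisense gene Gm26626, which had no counts.

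Fli1, an ETS factor of stem cells, megakaryocytes and endothelium, rose as well. It was at 176, 184, 51.9 and 61.1 CPM in WT replicates 1 to 4, at 510, 534 and 636 CPM with neo and at 403, 478 and 395 CPM with puro. All 6 MLL-AF9 libraries were above all HSPC libraries, and all neo cultures above all puro cultures. Fli1 rose 4.12-fold (log2 fold change 2.04, SE 0.40, adjusted p = 0.000975). The log2 fold change was 1.40 (adjusted p = 0.00221) against the WT libraries with less Gm26917 and 2.99 (adjusted p = 3e-05) against the others. It was 1.41 (adjusted p = 0.000425) after a correction for GC content, which is 44.5% in the longest Fli1 transcript, the lowest of the heptad.

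Erg, the ETS factor that sustains adult stem cells and is a known oncogene in myeloid leukemia, ranged widely among the MLL-AF9 cultures. It was at 52.3, 41.5, 21.6 and 23.6 CPM in WT HSPCs. Neo cultures had 77.5, 17.4 and 15.2 CPM and puro cultures 210, 64.1 and 198 CPM. Neo cultures thus lay both above and below all WT libraries, whereas all puro cultures lay above them. The log2 fold change over all 6 cultures was 1.47 (SE 0.71) and did not pass (adjusted p = 0.0883). It was 2.20 (adjusted p = 0.00601) with puro cultures alone and 0.12 (adjusted p = 0.877) with neo cultures alone. It passed when neo replicate 2 (1.70) or neo replicate 3 (1.71) was left out, and with DESeq2 (1.44, adjusted p = 0.0399). Where the alike puro libraries 4 and 6 were counted as 1 sample it was 1.15 (adjusted p = 0.171). The fit with puro cultures alone held both of these libraries (210 and 198 CPM) as separate samples.

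The ratio of the related ETS genes showed the same spread. Per kb of exon, Fli1 was 2.38 to 4.41 times Erg in the HSPC libraries. In MLL-AF9 cells the ratio was 6.54, 30.4 and 41.7 with neo and 1.91, 7.4 and 1.98 with puro. Endothelial markers were examined because Erg and Fli1 are also endothelial genes. Cdh5, which encodes the endothelial cadherin, was at 1.07 to 1.8 CPM in WT HSPCs and at no more than 0.0799 CPM in any MLL-AF9 library. Of the 6 endothelial markers 5 passed as lower than in WT HSPCs, beside 29.4% of all genes. Pecam1 did not pass (log2 fold change -0.74, adjusted p = 0.259). Summed, the 6 markers were at 100 to 130 CPM in WT HSPCs, 14.6 to 21.3 CPM with neo and 69 to 109 CPM with puro, most of it Pecam1. The part of these cells in the Erg and Fli1 values was not tested.

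**Figure D2:**
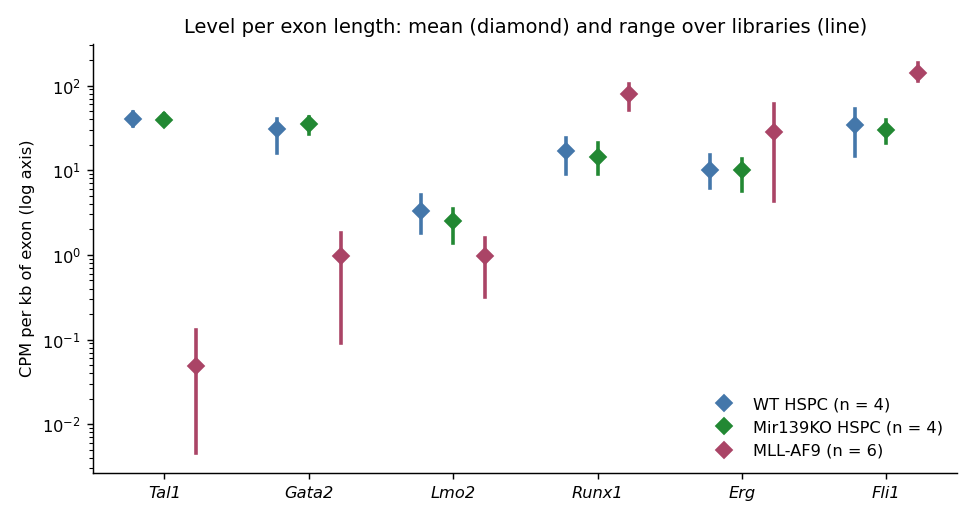
Level per kb of exon (CPM per kb, log axis) of 6 heptad genes, with the mean (diamond) and the range over libraries (line) for 4 WT HSPC, 4 Mir139KO HSPC and 6 MLL-AF9 libraries. The HSPC groups lie side by side for every gene, whereas in MLL-AF9 cells Fli1 (141) and Runx1 (79.4) are highest and Tal1 (0.0487) is lowest.

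Per length, the order of the heptad genes changed between HSPCs and MLL-AF9 cells. In WT HSPCs Tal1 was highest (39.9 ± 7.43 CPM per kb, SD, n = 4), followed by Fli1 (33.9 ± 20.5), Gata2 (30.3 ± 10.6), Runx1 (16.7 ± 8.47) and Erg (10.0 ± 4.24), and each neighbour in this order overlapped the next. Lmo2 (3.29 ± 1.56) lay below all of them without overlap. The order of Tal1 and Fli1 differed between the kinds of WT library. Fli1 was above Tal1 in replicates 1 and 2 (50.4 and 52.7 against 33.2 and 34.7 CPM per kb), which were below 25% Gm26917. It was below Tal1 in replicates 3 and 4 (14.9 and 17.5 against 42.6 and 49.2 CPM per kb). In Mir139KO HSPCs the means ran from Tal1 (39.4 ± 4.74) and Gata2 (34.8 ± 6.93) through Fli1 (30.0 ± 10.4), Runx1 (14.2 ± 5.02) and Erg (10.1 ± 3.92) to Lmo2 (2.5 ± 0.932), and again only Erg and Lmo2 did not overlap. In MLL-AF9 cells Fli1 led (141 ± 25.8 CPM per kb, SD, n = 6), above Runx1 (79.4 ± 18.6) without overlap. Erg followed (28.0 ± 24.9, overlapping Runx1), and then Gata2 (0.963 ± 0.822) and Lmo2 (0.957 ± 0.506), which overlapped each other. Tal1 was last of the detected genes (0.0487 ± 0.0471). The ratio of Tal1 to Gata2 per kb was 0.842 to 2.1 in HSPC libraries and 0.0171 to 0.22 in MLL-AF9 libraries. Tal1 was thus the more strongly reduced of the pair in all 6 cultures. The neo ratios rest on 5, 1 and 2 Tal1 counts, the lower of these under the floor, so their size is uncertain.

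**Figure D3:**
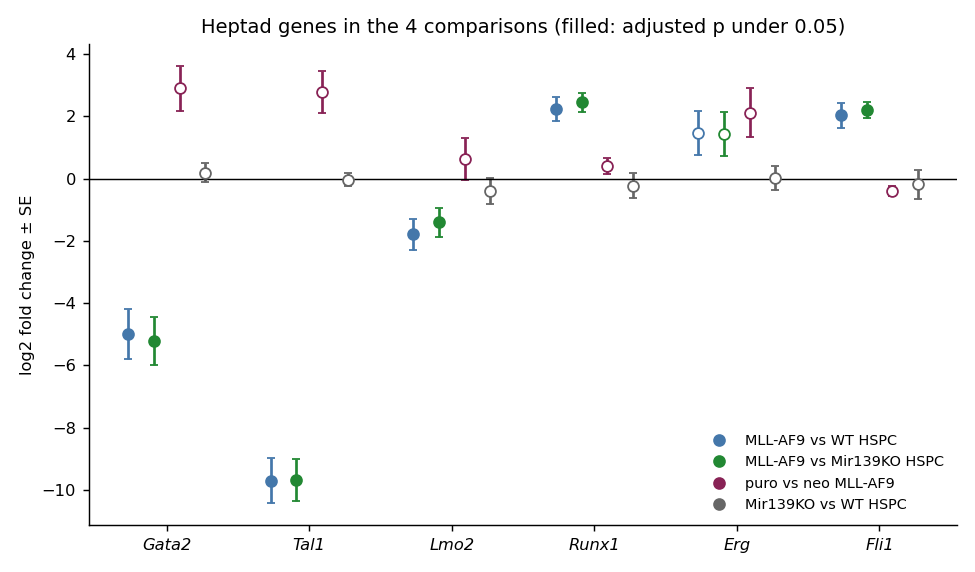
Log2 fold change with its SE for 6 heptad genes in 4 comparisons, with filled points for an adjusted p under 0.05. The comparisons with MLL-AF9 cells share the MLL-AF9 libraries and give the same 5 calls, Gata2, Tal1 and Lmo2 lower and Runx1 and Fli1 higher, while no point is filled for Mir139KO against WT HSPCs or for puro against neo cultures.

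The comparison with Mir139KO HSPCs, which uses the same MLL-AF9 libraries, is given for each gene's own values. Again 2 of 6 members passed as higher (37.3% of all 16953 genes tested did) and 3 as lower (31.9%), and the groups did not overlap for 4 members and for 58.0% of all genes. The median log2 fold change was 0.02 for the members and 0.16 for all genes, the latter 0.84 with scaling to total counts (8011 higher and 3212 lower genes instead of 6325 and 5416). Gata2 was at 228, 146, 168 and 209 CPM in Mir139KO replicates 1 to 4 and fell in MLL-AF9 cells (log2 fold change -5.21, SE 0.78, adjusted p = 9.4e-05). Tal1, at 156, 160, 173 and 202 CPM, fell as well (-9.69, SE 0.67, adjusted p = 4.51e-07). Every Mir139KO library of both genes was above every MLL-AF9 library.

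Runx1 was at 109, 180, 250 and 144 CPM in Mir139KO HSPCs and rose in MLL-AF9 cells (log2 fold change 2.45, SE 0.30, adjusted p = 2.54e-05). Fli1, at 73.8, 137, 136 and 72.6 CPM, rose too (2.20, SE 0.27, adjusted p = 2.65e-05). Lmo2 was at 2.96, 6.41, 7.58 and 4.69 CPM, so that its lowest library lay within the MLL-AF9 range. The Lmo2 log2 fold change was -1.41 (SE 0.46, adjusted p = 0.015). That call was lost without Mir139KO replicate 3 (-1.22), after GC correction (-0.85, adjusted p = 0.123), with scaling to total counts (-0.75, adjusted p = 0.236), with puro cultures alone (-1.10) and against the Mir139KO libraries above 25% Gm26917 (-0.95). It was also lost with GC correction plus a block for the replicate number (-0.83, adjusted p = 0.219). Erg, at 27.9, 45.4, 47.5 and 19.6 CPM, did not pass (1.44, SE 0.70, adjusted p = 0.0823), and stood at 2.18 (adjusted p = 0.00146) with puro cultures alone and 0.08 (adjusted p = 0.902) with neo cultures alone. It also passed with scaling to total counts (2.11), GC correction (1.78) and DESeq2 (1.42), and without neo replicate 2 (1.67) or neo replicate 3 (1.68). Where puro libraries 4 and 6 were counted as 1 sample it was 1.12 (adjusted p = 0.167).

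No detected heptad gene differed between Mir139KO and WT HSPCs by more than the spread between libraries. The Mir139KO and WT HSPC libraries overlapped for every member. None of the 6 members tested passed, at a background of 0.0% of 15056 genes (0 genes with edgeR), and none had an unadjusted p under 0.05, which 86 genes (0.571%) had. DESeq2 and limma-voom also called no member. The log2 fold changes were 0.19 for Gata2 (SE 0.31), -0.03 for Tal1 (SE 0.21), -0.40 for Lmo2 (SE 0.42), -0.23 for Runx1 (SE 0.40), 0.01 for Erg (SE 0.38) and -0.18 for Fli1 (SE 0.46), each with an adjusted p of 1.0. With SEs of this size, changes smaller than about the spread between libraries were not detectable in this fit. With the kind of library as a covariate the SEs were smaller, and again no member was called. The log2 fold changes were then 0.22 for Gata2 (SE 0.18), -0.01 for Tal1 (SE 0.12) and -0.35 for Lmo2 (SE 0.19). They were -0.13 for Runx1 (SE 0.16), 0.02 for Erg (SE 0.13) and -0.02 for Fli1 (SE 0.15).

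Within the HSPCs no member separated by genotype, but libraries with less than 25% Gm26917 did not overlap those with more for 5 of 6 members, as for 65.0% of all genes tested. Runx1 was at 180 to 291 CPM in the 4 libraries below 25% and at 107 to 144 CPM in the 4 above it. Fli1 was at 136 to 184 against 51.9 to 73.8 CPM, Erg at 41.5 to 52.3 against 19.6 to 27.9 CPM, and Lmo2 at 6.41 to 11.1 against 2.96 to 4.7 CPM. Gata2 ran the other way, at 85.1 to 168 CPM below and 194 to 228 CPM above 25%. Tal1 overlapped, at 145 to 173 and 156 to 215 CPM. Megakaryocyte markers summed to 148 to 520 CPM in the libraries below 25% and to 528 to 799 CPM in those above it, and mast cell and basophil markers to 674 to 1290 and 1420 to 1750 CPM. The sums were also higher without overlap in the libraries above 25% for B cell (30.9 to 52.0 and 53.9 to 82.2 CPM), T and NK cell (80.3 to 98.0 and 125 to 170 CPM) and monocyte and macrophage markers (292 to 436 and 544 to 689 CPM), and overlapped for stem and progenitor, erythroid, endothelial and neutrophil markers. The part of these cells in the members' values was not tested. Both kinds of library held 2 WT and 2 Mir139KO samples. The kinds were set from the data and are not groups of the study.

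**Figure D4:**
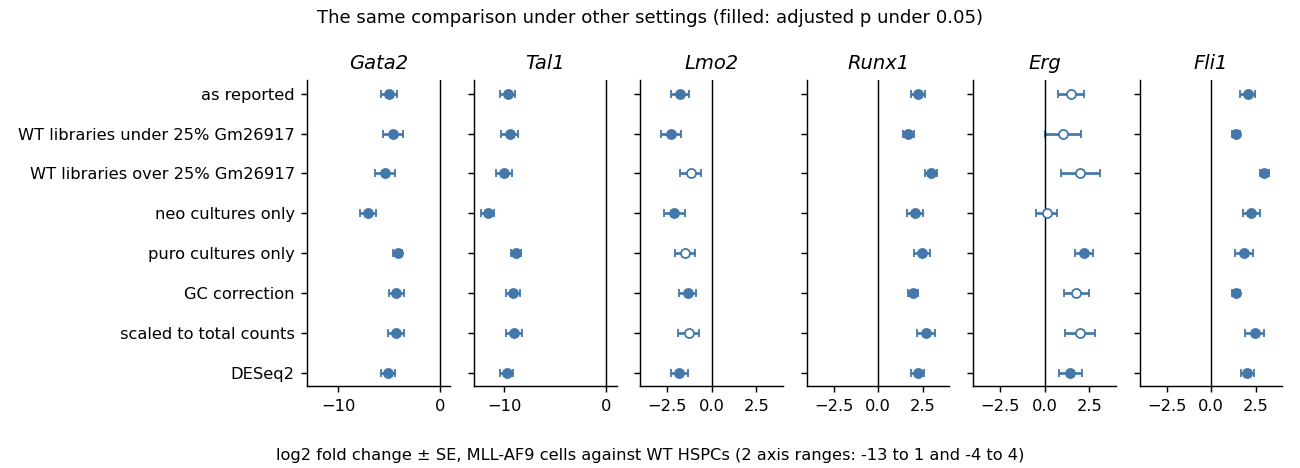
Log2 fold change with its SE of 6 heptad genes between MLL-AF9 cells and WT HSPCs, as reported and under 7 other settings, with filled points for an adjusted p under 0.05 and wider axes for Gata2 and Tal1. Gata2, Tal1, Runx1 and Fli1 stay filled in all rows, Lmo2 opens in 3 and Erg fills with puro cultures alone and with DESeq2.

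Between vectors the largest log2 fold changes of members were those of Gata2, Tal1 and Erg, all higher with puro. In puro against neo cultures (n = 3 each) no member passed, at a background of 0.873% of 16503 genes, but 4 members had an unadjusted p under 0.05, as did 13.7% of all genes, and 3 did not overlap, as did 19.7%. Gata2 was 8.52 to 9.8 CPM with puro and 0.495 to 2.64 CPM with neo (log2 fold change 2.90, SE 0.72, adjusted p = 0.141). Tal1 was 0.266 to 0.56 CPM against 0.0198 to 0.0969 CPM (2.79, SE 0.67, adjusted p = 0.125), from 57 and 8 reads in all. These 2 genes passed with DESeq2 (adjusted p = 0.000764 and 0.0286) and with all 14 samples in 1 fit (adjusted p = 0.00704 and 0.00367), and no member passed with limma-voom.

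Erg was 64.1 to 210 CPM with puro and 15.2 to 77.5 CPM with neo (log2 fold change 2.11, SE 0.79, adjusted p = 0.312), and the ranges overlapped through neo replicate 1 and puro replicate 5. The log2 fold change was 3.32 (adjusted p = 0.123) without neo replicate 1. Fli1 differed in the opposite direction, at 395 to 478 CPM with puro and 510 to 636 CPM with neo (-0.40, SE 0.16, adjusted p = 0.348). Lmo2 (0.63, SE 0.67) and Runx1 (0.41, SE 0.26) overlapped between vectors. The median log2 fold change was 1.37 for the 6 members and -0.02 for all genes. Of the 6 endothelial markers 3 were tested between vectors. Pecam1, also a blood cell marker, passed as higher with puro (68.8 to 107 CPM, against 13.8 to 20.3 CPM with neo, adjusted p = 0.0284), while Tie1 (1.71) and Kdr (-0.58) did not pass, and Cdh5, Tek and Emcn had means of no more than 0.248 CPM with either vector. The neutrophil marker Camp, named after its values were seen as the only other marker called between vectors, passed as lower with puro (3.7 to 6.59 CPM, against 92.7 to 156 CPM with neo, log2 fold change -4.41, adjusted p = 0.014). The part of these cells in the members' differences between vectors was not tested. Vector, drug and culture cannot be told apart in these samples.

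The partners of the heptad proteins in DNA-bound complexes were compared between MLL-AF9 cells and WT HSPCs as well. Of 12 partner genes 9 were tested, 3 passed as higher and 4 as lower (32.8% and 29.4% of all genes), with a median log2 fold change of 0.69 (0.14 for all genes). The corepressor gene Cbfa2t3 and the GATA cofactor gene Zfpm1 were listed at 0 in every library, which, as for Lyl1, says nothing about their expression. Ldb1, which encodes the protein that holds the LMO2 complex together, was at 281 ± 126 CPM in WT HSPCs and fell to 45.4 ± 6.98 CPM in MLL-AF9 cells (mean ± SD, log2 fold change -2.66, adjusted p = 2.89e-05). Of the 3 E-protein genes, 1 fell and 2 rose. Tcf3 fell from 283 ± 109 to 37.8 ± 12.9 CPM (-2.94, adjusted p = 2.85e-05), while Tcf12 rose from 52.2 ± 32.5 to 360 ± 135 CPM (2.77, adjusted p = 0.000336) and Tcf4, named after its values were seen, from 24.2 ± 11.1 to 159 ± 67.9 CPM (2.71, adjusted p = 0.00023). The single-stranded DNA binding cofactor gene Ssbp2, named here after its values were seen, was the only partner called between vectors, at 134 to 182 CPM with puro and 18.8 to 33.7 CPM with neo (2.43, adjusted p = 0.0271).

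Of 13 paralogs of the heptad genes, 11 were tested, 4 passed as higher and 4 as lower (32.8% and 29.4% of all genes), with a median log2 fold change of 0.43. Gata1, the erythroid and megakaryocyte GATA factor, was at 138 ± 71.0 CPM in WT HSPCs and fell to 0.328 ± 0.239 CPM (mean ± SD, log2 fold change -8.72, adjusted p = 1.6e-06). Gata3 fell from 6.38 ± 1.55 to 0.42 ± 0.12 CPM (-3.93, adjusted p = 5.68e-06), so that both GATA genes of the list were lower, as Gata2 was. The Runx1 paralogs, named after their values were seen, went apart. Runx2 rose from 49.7 ± 17.5 to 515 ± 96.2 CPM (3.36, adjusted p = 9.67e-06). Runx3 fell from 120 ± 33.4 to 65.5 ± 14.1 CPM (-0.90, adjusted p = 0.0103). The ETS repressor gene Etv6 rose from 255 ± 87.0 to 702 ± 186 CPM (1.44, adjusted p = 0.00171). Between vectors the ETS gene Elf1, also named after its values were seen, was the only paralog called (1.38, adjusted p = 0.0493).

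Of the 3 further factors that have been mapped with the heptad, Meis1, a homeobox gene and known target of MLL fusions, rose from 19.6 ± 7.81 to 463 ± 370 CPM (log2 fold change 4.55, adjusted p = 0.000237). It was at 127 to 246 CPM with neo and 445 to 917 CPM with puro, without overlap, but did not pass between vectors (adjusted p = 0.0801). Gfi1b, an erythroid and megakaryocyte repressor gene, fell from 145 ± 76.3 to 0.322 ± 0.191 CPM (-8.83, adjusted p = 1.65e-06). Spi1, which encodes PU.1, was at 246 ± 69.5 and 205 ± 40.7 CPM and did not pass (-0.28, adjusted p = 0.378).

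Among 14 genes with enhancers known to be bound by heptad factors, 13 were tested, 1 passed as higher and 8 as lower (32.8% and 29.4% of all genes), with a median log2 fold change of -1.56 (0.14 for all genes). Gfi1b, described above, had the largest decrease of the list. Smad6, an inhibitor of BMP signalling named here because it was the only one higher, was at 2.59 ± 0.0375 CPM in WT HSPCs and 11.4 ± 7.3 CPM in MLL-AF9 cells (2.13, adjusted p = 0.00428). Several genes of this list are stem, megakaryocyte or erythroid markers. Against Mir139KO HSPCs the calls numbered 4 higher and 4 lower partners, 5 higher and 4 lower paralogs, and 1 higher and 8 lower bound genes, beside 37.3% higher and 31.9% lower of all genes. None of the listed genes was called between Mir139KO and WT HSPCs.

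**Figure D5:**
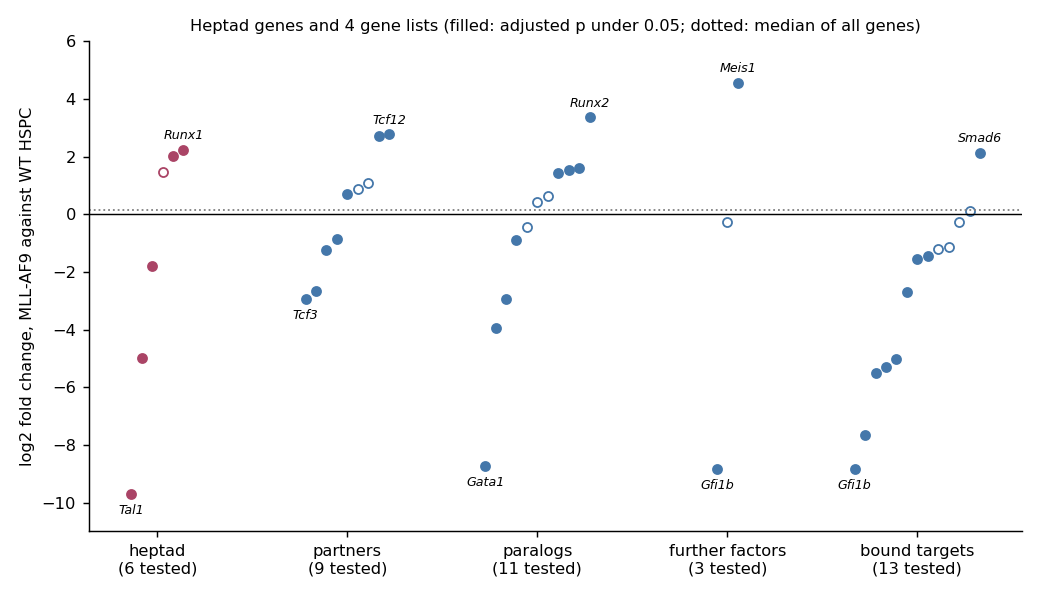
Log2 fold change between MLL-AF9 cells and WT HSPCs of 6 heptad genes (red) and of the tested genes of 4 lists (blue), each point a gene, filled for an adjusted p under 0.05, with the lowest and highest gene of each list named and the median of all genes dotted (0.14). The heptad runs from Tal1 (-9.70) to Runx1 (2.24), and most bound targets lie below 0.

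Over the 14 libraries, the genes whose log2 CPM profile was most like that of each member were found by the root mean square (RMS) difference of centred values among 8537 genes, as a description with no test. Fli1 was followed most closely by Nedd4 and Fgfr1op (both 0.16), and Runx1 by Cmc1 (0.18) and Utrn (0.19). Erg was nearest to Cd84 (0.38) and Cux1 (0.53), Lmo2 to Fam117a (0.48) and Kcnip3 (0.51), Gata2 to Slc43a1 (0.63) and Crip1 (0.66), and Tal1 to Ermap (0.71) and Atp1b2 (0.99). Among the members themselves Runx1 and Fli1 were nearest (0.39) and Tal1 and Runx1 farthest apart (6.22), and the RMS difference of Erg was 1.13 from Runx1 and 1.34 from Fli1.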

How the data were processed

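The authors deposited a table of raw counts per gene for the whole series (unit: counts, not normalized). Per the labels and the submitters' processing notes, reads were aligned to GRCm38 with STAR 2.5.3e, counted with featureCounts 1.6.0 and tested by the authors with DESeq2 1.22.2. The strand setting was not given in the sources used here, and 10 columns of another series were not used. Positions and exon lengths came from GENCODE M21, which matched 52403 of 52550 genes.

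Genes passed a filter of at least 10 counts in a number of samples equal to the size of the smaller group and were tested with edgeR 4.0.16 (TMM factors, robust quasi-likelihood F test, R 4.3.3), with only the 2 groups compared in each fit and Benjamini-Hochberg adjusted p under 0.05 as the call. CPM used TMM factors over all 14 libraries. The fit was also run on simulated counts with the same dispersion for all genes. These held neither the kinds of HSPC library nor alike libraries, so they do not check the p-values given here. The members, gene lists and markers were chosen with earlier results of these data known. From each list the 2 called genes with the largest change and the most abundant gene are named, and 1 gene that the rule named is not reported here. Alternatives were DESeq2 1.42.0, limma-voom (limma 3.58.1), other scalings and filters, a GC correction, left-out samples and vectors, and the replicate block. Mir139KO and WT HSPCs were also fitted with the kind of library as a covariate. The detection floor covers counting error only, whereas SDs and SEs hold the spread between libraries.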

Additional observations from a re-analysis of the deposited data

How the results depend on the processing

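Between MLL-AF9 cells and WT HSPCs, 4 to 6 members were called under 15 other settings and 5 to 6 when 1 library was left out, and the same ranges against Mir139KO HSPCs were 4 to 6 and 4 to 6. Gata2, Tal1, Runx1 and Fli1 kept their call in all 25 alternatives of both comparisons. Correlations of same-numbered deviations did not settle whether the replicate numbers pair the samples. They ran from -0.0557 to 0.0947 for MLL-AF9 and WT samples. For Mir139KO and WT samples they ran from -0.656 to 0.723. There they were positive within a kind of library and negative between kinds, so a pairing could not be seen. By the number within each vector, they ran from -0.337 to 0.47 for puro and neo samples. For MLL-AF9 and Mir139KO samples they were 0.019 to 0.191, against -0.151 to 0.105 for differently numbered samples. With the replicate block, the log2 fold change against WT HSPCs was -6.60 for Gata2 and 0.37 for Erg, and Lmo2 was lost only with GC correction added (-1.25). In these block fits MLL-AF9 replicates 5 and 6 had no HSPC sample of the same number and did not inform the difference. The difference thus rested on the neo cultures and puro replicate 4. With neo cultures alone Gata2 was at -7.05 and Erg at 0.12.

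The members' small differences between Mir139KO and WT HSPCs changed sign under some settings, always without a call. Erg turned to -0.12 with total counts, -0.02 with GC correction and -0.01 with GC correction and the replicate block, and Fli1 to 0.02 and 0.04 in these GC-corrected fits. Tal1 was 0.18 in the HSPC libraries below 25% Gm26917, and Runx1 0.14 and Fli1 0.34 in those above it. In the libraries below 25% Fli1 was -0.38 (adjusted p = 0.162), Runx1 -0.41 (adjusted p = 0.248) and Lmo2 -0.49 (adjusted p = 0.256). Within each of these kinds of library 1 gene of the whole table was called. Leaving out 1 library moved Gata2 between -0.04 and 0.37, Tal1 between -0.13 and 0.09, Erg between -0.17 and 0.26 and Fli1 between -0.42 and 0.11.

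Between vectors 2 members were called with DESeq2 and with all 14 samples in 1 fit. Leaving out 1 library moved Gata2 between 2.52 and 4.13 (the highest without neo replicate 3), Tal1 between 2.43 and 3.62 and Erg between 1.74 and 3.32 (both highest without neo replicate 1), always without a call. Over all genes the calls numbered 144 as reported, 1326 with DESeq2, 221 without a filter on low counts, 761 with all 14 samples in 1 fit, 214 with the replicate block, 270 with GC correction and the replicate block, 5 with puro libraries 4 and 6 summed, and 0 to 990 with 1 library left out (0 without neo replicate 2 or 3, 3 without puro replicate 6, 5 without puro replicate 4, 41 without neo replicate 1 and 990 without puro replicate 5). The cause was not tested. Low counts limit Tal1 in MLL-AF9 cells (1 to 28 counts) and Gata2 in neo replicates 1 and 2 (28 and 25 counts). Lmo2 had more, at 35 to 173 counts in MLL-AF9, 120 to 529 in WT and 70 to 310 in Mir139KO libraries. The Lmo2 fold change also varied with the kind of HSPC library.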
